A study of Mus musculus with 45 samples.

Results

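The 10 genes described here belong to the bone morphogenetic protein (BMP) pathway of the mouse. They are the ligand genes Bmp4 and Bmp7, the secreted antagonist gene Nog, the pseudoreceptor gene Bambi, the inhibitory SMAD genes Smad6 and Smad7, and the 4 inhibitor of DNA binding genes Id1, Id2, Id3 and Id4. They were chosen by name, through the symbol that the annotation gives to each Ensembl identifier, from 54532 genes in the count table, and all 10 were found. RNAseq counts came from 45 libraries of neural tube organoids that grew clonally in Matrigel from R1, a line of mouse embryonic stem (ES) cells with the label WT for its genotype. Organoids were collected on day 2, then 8 and 18 h afterwards and every 12 h from there up to 78 h, either in N2B27 medium alone (untreated) or in N2B27 with 250 nM all-trans retinoic acid (RA) added from day 2 (RA-treated). Each of these 15 conditions had 3 biological replicates, so that RA treatment was compared with no treatment at 7 time points. All groups share the cell line, the medium and the gel, and 1 ES cell line stands for the genotype in every group.

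BMP ligands bind pairs of receptor kinases at the cell surface, which phosphorylate SMAD1, SMAD5 and SMAD9. These enter the nucleus with SMAD4 and switch on target genes, among them the Id genes, whose proteins hold E proteins away from the proneural bHLH factors that drive neuronal differentiation. The pathway also induces its own brakes: SMAD6 and SMAD7 block the receptors and BAMBI is a receptor without a kinase, while Noggin binds the ligands outside the cell. In the neural tube, BMP signals from the surface ectoderm and roof plate pattern the dorsal progenitors, and RA is made by the neighbouring mesoderm.

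Library depth ran from 17298632 to 39688686 counts with a median of 25923745. Depth set the limit for Nog, which had 0 to 90 counts a library, while the other 9 genes had at least 6 counts in every library. Over all 6 neural progenitor markers (Sox1, Sox2, Nes, Pax6, Sox3 and Cdh2), summed expression was 947 to 1080 CPM (counts scaled to effective library size) in untreated and 1049 to 1239 CPM in RA-treated libraries at 78 h. At 42 h the sums were 514 to 633 and 899 to 1035 CPM, when Cdh2 and Pax6 were called higher under RA. The mean of 4 Y-linked genes was 1.22 to 3.73 CPM in 6 libraries and 22.6 to 89.9 CPM in the other 39. These 6 were the 3 untreated libraries at 30 h, RA replicates 1 and 3 at 30 h and RA replicate 3 at 8 h, so that no comparison at 30 h could be made without them. For 8 h, values without RA replicate 3 are given beside the results. The library numbers fall into an earlier and a later series, which split the RA group at 30 h, where replicates 2 and 3 belong to the later one. Day 2 replicate 3, untreated replicate 3 at 54 h and all libraries at 66 and 78 h were of the later series too.

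RefSeq promoter windows of GRCm38.p6 were found for 5 of the 10 genes (Id2, Id3, Id4, Bmp4 and Smad6). Those of Bmp4, Smad6 and Id4 are shown, since these windows hold no annotated exon of the gene itself (exons of other genes were not checked). Each runs 5′ to 3′ on the strand of the gene, over the 250 bases before its start site. Capitals mark a match to GGCGCC, the core of a GC-rich element known from BMP-responsive genes, or to GTCT, the SMAD box (AGAC on the other strand).
Bmp4, chr14:46390670-46390919, minus strand: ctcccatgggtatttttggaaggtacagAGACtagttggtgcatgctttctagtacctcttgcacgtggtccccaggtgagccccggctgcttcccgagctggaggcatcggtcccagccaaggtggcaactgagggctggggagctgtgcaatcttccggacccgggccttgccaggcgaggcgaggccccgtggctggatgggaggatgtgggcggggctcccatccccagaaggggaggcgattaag
Smad6, chr9:64022060-64022309, minus strand: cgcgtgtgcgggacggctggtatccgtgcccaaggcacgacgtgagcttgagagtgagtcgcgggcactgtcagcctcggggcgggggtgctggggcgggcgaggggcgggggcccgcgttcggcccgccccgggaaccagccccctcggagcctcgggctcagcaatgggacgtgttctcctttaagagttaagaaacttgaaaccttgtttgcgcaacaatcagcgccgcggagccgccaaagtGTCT
Id4, chr13:48260866-48261115, plus strand: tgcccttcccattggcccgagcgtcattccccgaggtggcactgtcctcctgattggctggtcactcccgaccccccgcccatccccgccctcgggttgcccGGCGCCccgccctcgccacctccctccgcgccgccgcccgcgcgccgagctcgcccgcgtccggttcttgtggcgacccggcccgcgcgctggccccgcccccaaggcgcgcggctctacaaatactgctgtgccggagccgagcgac
Id4 held GGCGCC starting 148 bases before the start site, Bmp4 held AGAC at 222 bases and Smad6 held GTCT at 4 bases. None of the 3 windows held AGGTCA, the half-site of nuclear receptors, or its complement TGACCT. Among 32851 promoter windows of the same length, 9.59% held GGCGCC, 82.9% held GTCT and 14.0% held AGGTCA, counting both strands, so the SMAD box match is shared with most promoters.

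The number of these genes that were higher in RA-treated than in untreated organoids grew from 8 h to 66 h, and none of the 10 was called lower at any of the 7 time points. A gene was called where edgeR's quasi-likelihood test gave a Benjamini-Hochberg adjusted p under 0.01 and the log2 fold change was beyond 1. At 8 h, edgeR called 0 of 9 tested genes higher, against 1.26% of all genes tested, and 0 lower, against 0.537%, with 2 of 9 (Bmp4 and Smad6) at an unadjusted p under 0.05, and DESeq2 called 1. At 18 h, 2 of 9 were called higher (Bmp7 and Smad6), against 8.17% of all genes, and 0 lower, against 2.76%. At 30 h, 2 of 9 were called higher (Id2 and Bmp7), against 5.98% of all genes, and 0 lower, against 2.48%. From 42 h on, Nog was tested too. At 42 h, 6 of 10 genes were called higher (Id1, Id3, Bmp4, Bmp7, Smad6 and Nog), against 7.49% of all genes tested, and the same 6 were called at 54 h, against 7.17%. The shares called lower were 4.96% of all genes tested at 42 h and 5.99% at 54 h. At 66 h, 8 of 10 were called higher, the exceptions being Id2 and Bambi, against 7.06% of all genes, and 0 lower, against 4.44%. At 78 h, 5 of 10 were called higher (Id1, Id3, Bmp4, Smad7 and Nog), against 7.66%, and 0 lower, against 4.03%. The median log2 fold change of the tested genes went from 0.13 at 8 h to 1.29 at 78 h, where that of all genes tested was 0.02 and 0.0015. At 42, 54 and 66 h fewer than 3 untreated libraries held 10 counts of Nog, so that it passed the filter on low counts through its RA libraries and could enter those counts only as a raised gene. The same held for Id4 at 30 h, which was not called.

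The number of genes whose RA libraries lay wholly above the untreated ones grew with time as well. All 3 RA libraries lay above all 3 untreated ones for 2 of the 10 genes at 8 h, 5 at 18 h, 7 at 30 h, 8 at 42 and 54 h, 9 at 66 h and 10 at 78 h. Of all genes tested, 17.4%, 31.5%, 26.4%, 31.8%, 32.4%, 29.3% and 29.4% did so, in the order of the times. At 8 h the 2 of 10 were near that share. The counts of the 10 genes include Nog, which was not tested up to 30 h. Nog was among the 5 at 18 h, on 4 to 8 counts under RA against 2 to 6 untreated. The RA libraries lay wholly below for 1 gene at 8 h, 3 at 18 h and 1 each at 30 and 42 h, and for 0 from 54 h on. The shares of all genes tested that lay wholly below were 20.7%, 29.5%, 21.8%, 26.9%, 27.4%, 25.8% and 26.8%.

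**Figure D1:**
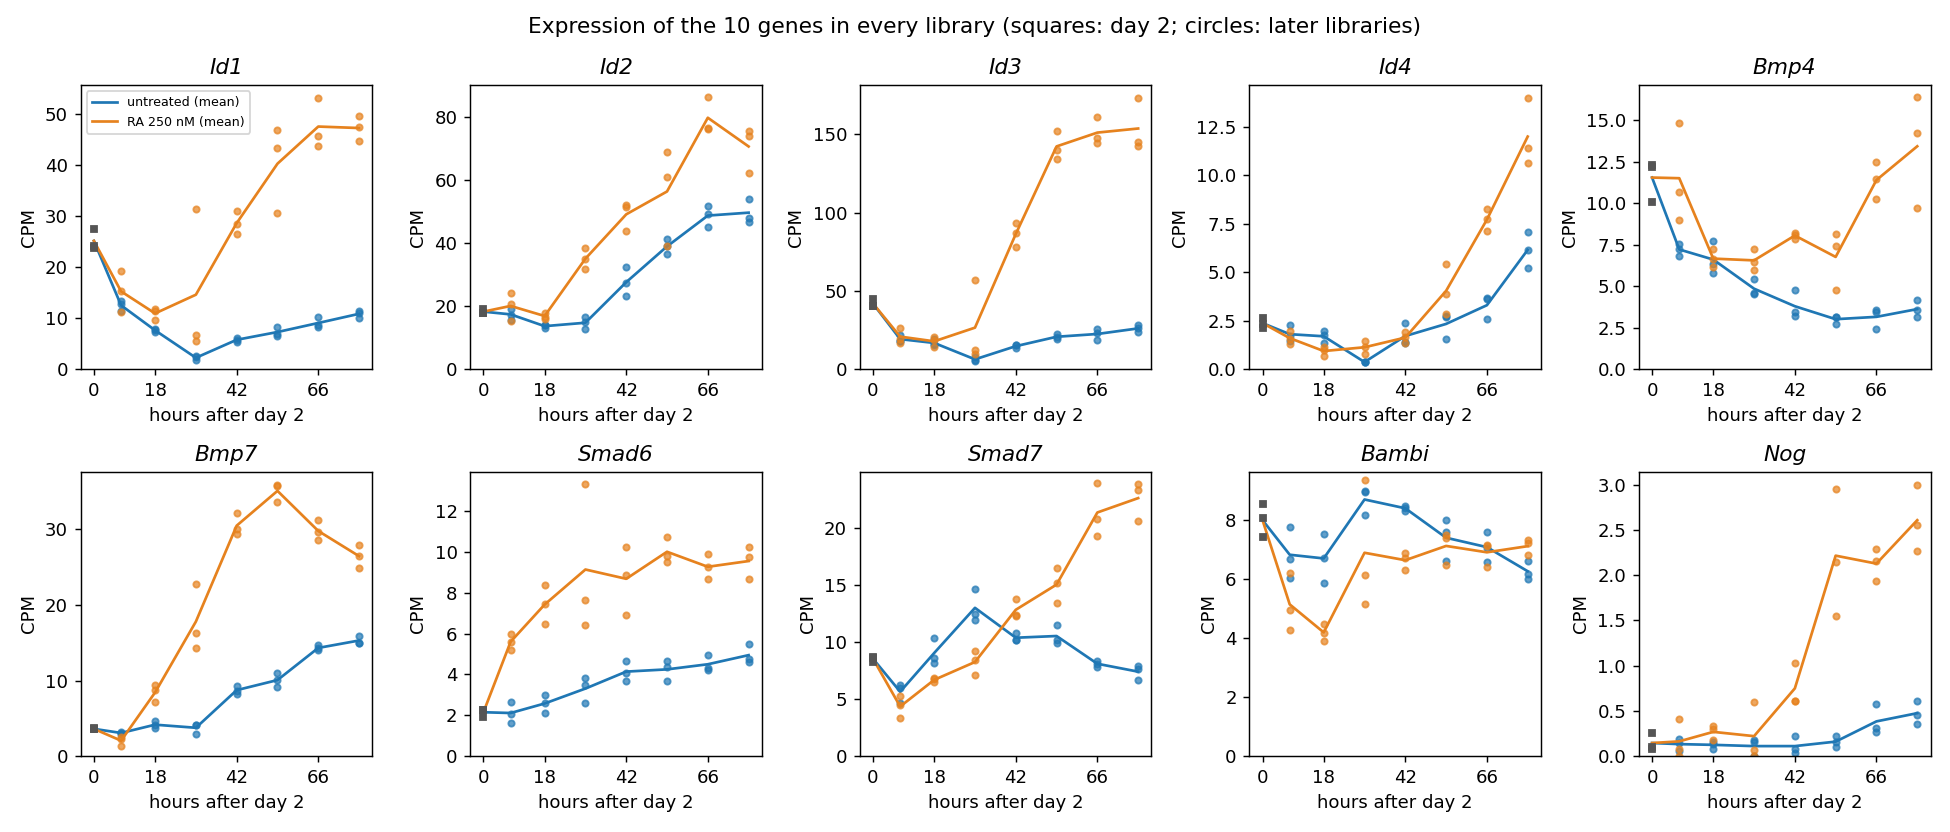
Expression (CPM, linear axes) of the 10 genes in each of the 45 libraries against hours after day 2, with squares for day 2, circles for later libraries and lines through the means of the 3 untreated (blue) and 3 RA-treated (orange) libraries. Id1 and Id3 were lower at 18 h than on day 2 in both arms, and at 42 h the RA libraries held 26.5 to 31.0 CPM for Id1 and 78.1 to 93.6 CPM for Id3, all above the untreated ones.

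Bmp7 was called higher under RA from 18 to 66 h, with the widest separation at 30 h. Bmp7 (ENSMUSG00000008999, chr2:172868012-172940321, minus strand) encodes a BMP ligand that can pair with other BMPs. On day 2 its 3 libraries held 3.57, 3.62 and 3.67 CPM. At 8 h, RA libraries held 2.54, 2.28 and 1.36 CPM and untreated ones 3.24, 2.97 and 3.01 CPM. All 3 RA libraries lay below the untreated ones at that time, by a log2 fold change of -0.55 ± 0.26 (SE) that was not called (edgeR adjusted p = 0.218). Without RA replicate 3 the value was -0.34. At 18 h the order had turned, with 9.41, 8.75 and 7.14 CPM under RA against 4.65, 3.79 and 4.08 CPM untreated. This gave a log2 fold change of 1.03 ± 0.13 (SE; edgeR adjusted p = 3.03e-05). That value sat at the threshold of 1 and fell to 0.97, 0.95 and 0.996 when untreated replicate 2, RA replicate 1 or RA replicate 2 was left out. At 30 h Bmp7 held 16.3, 22.8 and 14.3 CPM under RA against 2.96, 4.15 and 4.18 CPM untreated, the largest separation of the course at 2.23 on the log2 scale (SE 0.24; edgeR adjusted p = 6.65e-04). RA libraries were highest at 54 h (35.9, 35.8 and 33.6 CPM), and the log2 fold change was 1.78 at that time.

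Later the arms came closer again for Bmp7. Untreated organoids rose from 8.74 CPM at 42 h to 15.3 CPM at 78 h, while RA-treated organoids went from 35.1 CPM at 54 h to 26.5 CPM at 78 h. The log2 fold change was 1.04 at 66 h, where it fell to 0.9998 without RA replicate 3, and 0.79 ± 0.07 (SE) at 78 h. At 78 h the libraries still did not overlap (24.9 to 27.9 against 15.02 to 15.86 CPM), but the difference was under the minimum fold (edgeR adjusted p = 5.25e-06).

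Bmp4 followed another course, with a fall in both arms and a late separation. Bmp4 (ENSMUSG00000021835, chr14:46383520-46390669, minus strand) encodes a ligand of the surface ectoderm and roof plate, and its GTCT match is the AGAC printed above. Day 2 libraries held 12.2, 10.1 and 12.3 CPM. At 8 h, untreated libraries had gone down to 7.27, 6.85 and 7.53 CPM, while RA libraries held 10.7, 9.01 and 14.8 CPM. These did not overlap, yet the difference of 0.68 ± 0.20 (SE) was not called (edgeR adjusted p = 0.0671). Without RA replicate 3 it was 0.46 ± 0.13 (SE; edgeR adjusted p = 0.0105). At 18 h the arms overlapped, at 6.16 to 7.23 CPM under RA and 5.78 to 7.71 CPM untreated, with a log2 fold change of 0.03 ± 0.13 (SE). From then on untreated organoids declined further to 3.02 ± 0.25 CPM (SD, n = 3) at 54 h. RA-treated organoids rose to 16.4, 14.2 and 9.68 CPM at 78 h, against 4.16, 3.59 and 3.15 CPM untreated, a log2 fold change of 1.90 ± 0.19 (SE; edgeR adjusted p = 1.28e-05). The calls at 42 h (1.07) and 54 h (1.14) were near the threshold. They fell to 0.95 without untreated replicate 1 and 0.99 without untreated replicate 2 at 42 h, and to 0.98 without RA replicate 3 at 54 h.

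Nog was close to undetected until 30 h and then rose in RA-treated organoids. Nog (ENSMUSG00000048616, chr11:89300638-89302332, minus strand) encodes Noggin, which binds BMP4 and BMP7 with high affinity and keeps them from their receptors. Through 30 h, counts of Nog were 0 to 6 on day 2 and without RA and 0 to 19 with RA, and the filter left it untested. At 42 h, RA libraries held 0.605, 0.614 and 1.03 CPM against 0.0782, 0.0383 and 0.220 CPM untreated, which is 13 to 26 against 1 to 6 counts. The log2 fold change was 2.67 ± 0.54 (SE; edgeR adjusted p = 0.0019), and without untreated replicate 2 it was 2.26 with an adjusted p of 0.0107. At 54 h, RA libraries held 2.15, 2.95 and 1.55 CPM against 0.228, 0.159 and 0.0975 CPM, a log2 fold change of 3.78 ± 0.41 (SE; edgeR adjusted p = 2.40e-05). The levels at 78 h were 2.56, 2.99 and 2.27 CPM under RA against 0.359, 0.608 and 0.461 CPM, and the log2 fold change was 2.43 ± 0.25 (SE). Untreated libraries also held more at 66 and 78 h (0.265 to 0.608 CPM) than day 2 libraries and untreated libraries of the earlier times (0 to 0.253 CPM).

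Bambi changed least of the 10 genes and was never called. Bambi (ENSMUSG00000024232, on chromosome 18) encodes a transmembrane pseudoreceptor, and its expression often goes together with that of Bmp4 in embryos. Its 15 condition means spanned 4.20 to 8.71 CPM, a 2.07-fold range, the narrowest of the 10. RA libraries lay below the untreated ones at 18 h, with 3.91, 4.19 and 4.502 CPM against 6.72, 5.87 and 7.55 CPM, a log2 fold change of -0.68 ± 0.13 (SE; edgeR adjusted p = 7.63e-04). They were also below at 42 h (6.33 to 6.89 against 8.33 to 8.49 CPM) and above at 78 h (6.81 to 7.35 against 6.02 to 6.63 CPM). At the other 4 time points the libraries of both arms overlapped.

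Smad6 was the only one of the 10 genes whose RA libraries all exceeded the untreated ones at each of the 7 time points. Smad6 (ENSMUSG00000036867, chr9:63953076-64022059, minus strand) encodes the inhibitory SMAD that acts mainly on BMP signals. At 8 h it held 5.999, 5.60 and 5.20 CPM under RA against 2.07, 2.67 and 1.603 CPM untreated, while day 2 libraries held 2.27, 1.91 and 2.28 CPM. The log2 fold change of 1.42 ± 0.23 (SE) missed the p threshold narrowly (edgeR adjusted p = 0.0104), and without RA replicate 3, the library with low Y-linked genes, it was 1.47 and called (adjusted p = 4.17e-05). Over the alternative fits at 8 h, the adjusted p ranged from 3.5e-06 to 0.036 among the settings that kept all 6 libraries. At 18 h, RA libraries held 6.46, 7.44 and 8.36 CPM against 2.12, 3.00 and 2.62 CPM, the largest separation of Smad6 at 1.53 ± 0.16 on the log2 scale (SE; edgeR adjusted p = 4.39e-06).

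After 18 h the RA level of Smad6 was 8.68 CPM or more in each condition mean from 30 to 78 h. Untreated organoids rose steadily in the means from 2.11 CPM at 8 h to 4.94 CPM at 78 h. For Smad6, log2 fold changes lay near the threshold, at 1.06, 1.21, 1.03 and 0.95 at 42, 54, 66 and 78 h, and the last was not called. Leaving out untreated replicate 1 or RA replicate 2 gave 0.97 and 0.92 at 42 h, and 0.9985 and 0.98 at 66 h. At 78 h, leaving out untreated replicate 2 or RA replicate 3 gave 1.02 in each case, which was called.

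Smad7 went the opposite way early and was raised late. Smad7 (ENSMUSG00000025880, on chromosome 18) encodes the inhibitory SMAD that acts on both BMP and TGF-beta receptors. At 18 h, RA libraries held 6.77, 6.82 and 6.49 CPM against 8.57, 8.197 and 10.4 CPM untreated, a log2 fold change of -0.44 ± 0.11 (SE; edgeR adjusted p = 0.00505). At 30 h they held 7.16, 9.22 and 8.40 CPM against 11.9, 12.5 and 14.7 CPM, a log2 fold change of -0.67 ± 0.16 (SE; edgeR adjusted p = 0.0192). At both times all 3 RA libraries lay below the untreated ones, and neither difference reached the minimum fold. The order was reversed at 42, 54, 66 and 78 h. At 78 h Smad7 held 23.3, 23.9 and 20.6 CPM under RA against 7.67, 7.93 and 6.64 CPM untreated, a log2 fold change of 1.61 ± 0.10 (SE; edgeR adjusted p = 2.60e-07). Untreated organoids reached their highest Smad7 mean at 30 h (13.0 CPM) and RA-treated ones at 78 h (22.6 CPM).

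Id1 and Id3 showed the largest and most sustained separation of the 4 Id genes. Id3 (ENSMUSG00000007872, chr4:136143497-136145755, plus strand) and Id1 (ENSMUSG00000042745, chr2:152736251-152737410, plus strand) are widely used readouts of BMP signalling. Id3 held 40.4, 40.5 and 45.2 CPM on day 2. Both arms had gone down by 18 h, to 14.6, 18.7 and 20.6 CPM under RA and 19.2, 15.6 and 15.9 CPM untreated. The arms overlapped at 18 h and differed by 0.10 ± 0.12 on the log2 scale (SE; edgeR adjusted p = 0.492). At 42 h, RA libraries held 93.6, 87.2 and 78.1 CPM and untreated ones 15.4, 13.6 and 15.5 CPM. The log2 fold change was 2.53 ± 0.08 (SE; edgeR adjusted p = 5.61e-09), and the ratio of the means was 5.81. At 78 h, RA libraries held 145, 142 and 173 CPM against 23.8, 26.1 and 28.6 CPM, a log2 fold change of 2.55 ± 0.09 (SE; edgeR adjusted p = 2.70e-09). From 42 to 78 h the log2 fold change of Id3 stayed between 2.53 and 2.75, although its level rose 1.78-fold under RA and 1.76-fold without it.

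Id1 held 24.2, 23.8 and 27.5 CPM on day 2. At 18 h, RA libraries held 9.63, 11.9 and 11.4 CPM against 7.31, 7.70 and 8.00 CPM untreated. Here the arms did not overlap, in contrast to Id3, and the log2 fold change of 0.52 ± 0.10 was under the minimum fold (SE; edgeR adjusted p = 9.95e-04). At 42 h it held 26.5, 31.0 and 28.4 CPM under RA against 5.47, 5.82 and 6.15 CPM, a log2 fold change of 2.29 ± 0.09 (SE; edgeR adjusted p = 2.23e-08). At 78 h it held 49.6, 47.5 and 44.7 CPM against 11.1, 10.2 and 11.5 CPM, a log2 fold change of 2.12 ± 0.07 (SE; edgeR adjusted p = 2.88e-09). The RA libraries of 66 h (43.8 to 53.1 CPM) and 78 h overlapped, so that no further rise was resolved between these times.

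Id2 and Id4 were higher at 78 h than on day 2 in both arms, and the arms lay closer together at that time than for Id1 and Id3. Id2 (ENSMUSG00000020644, chr12:25093799-25097140, minus strand) was called at 30 h, where it held 31.9, 35.0 and 38.4 CPM under RA against 16.5, 12.8 and 15.1 CPM, a log2 fold change of 1.23 ± 0.14 (SE; edgeR adjusted p = 8.66e-04). At 42, 54, 66 and 78 h its log2 fold change was 0.82, 0.51, 0.69 and 0.51, all under the minimum fold, while untreated organoids rose from 14.8 CPM at 30 h to 49.7 CPM at 78 h. The arms of Id2 overlapped only at 8 h and at 54 h, where RA replicate 1 held 39.2 CPM between untreated libraries of 36.7 to 41.2 CPM. Id4 (ENSMUSG00000021379, chr13:48261228-48266026, plus strand), an Id protein of neural progenitors, was the least expressed of the 4. At 18 h, RA libraries held 0.704, 1.15 and 0.996 CPM of Id4 against 1.99, 1.37 and 1.77 CPM untreated, lower in every RA library but not called (log2 fold change -0.83 ± 0.26, SE; edgeR adjusted p = 0.0161). At 78 h they held 10.6, 11.4 and 14.0 CPM against 7.10, 5.21 and 6.18 CPM, a log2 fold change of 0.96 ± 0.14 (SE). It was called at 66 h (1.21 ± 0.15, SE; edgeR adjusted p = 9.68e-05), and at 78 h it became called, at 1.06 and 1.04, when untreated replicate 1 or RA replicate 1 was left out.

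**Figure D2:**
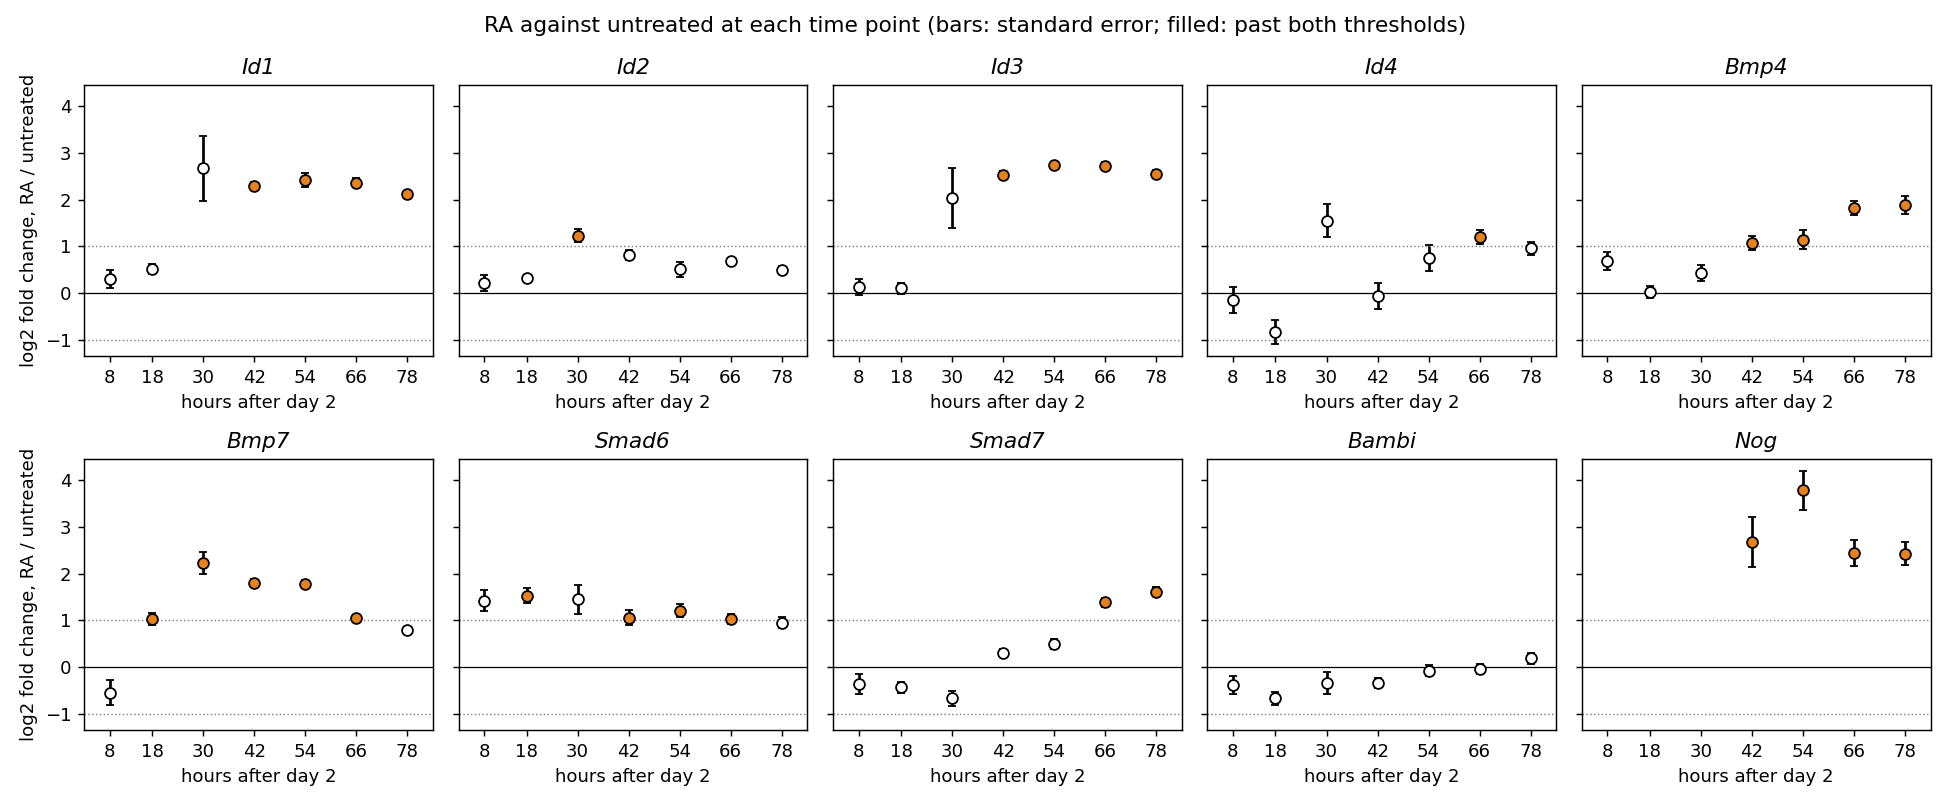
Log2 fold change of RA-treated over untreated organoids for each of the 10 genes at each time point where it was tested, with bars for the standard error and dotted lines at 1 and -1. Filled circles passed both thresholds. Smad6 lay above 0.9 at all 7 time points, Smad7 and Bambi went from below 0 at 8 h to above 0 at 78 h, and Id1 and Id3 lay above 2 from 30 h on.

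At 30 h the RA libraries differed widely among themselves. Id1 held 6.84, 31.5 and 5.60 CPM in RA replicates 1, 2 and 3, against 1.80, 2.69 and 2.40 CPM in the untreated libraries. Id3 held 12.6, 57.2 and 10.2 CPM under RA against 5.66, 7.82 and 5.91 CPM. Smad6 held 6.41, 13.3 and 7.65 CPM under RA against 3.48, 2.63 and 3.82 CPM. RA replicate 2 stood well above the others, near the RA libraries of 42 h for Id1, and it was the only library of that time point without low Y-linked genes (30.0 CPM on average, against 1.22 to 3.28 CPM). With all 6 libraries, Id1 had a log2 fold change of 2.67 ± 0.69 (SE; edgeR adjusted p = 0.0253) and Id3 one of 2.04 ± 0.65 (SE; edgeR adjusted p = 0.052). Without RA replicate 2, the spread fell and 4 genes were called in place of 2, with log2 fold changes of 1.44 ± 0.20 for Id1, 1.22 ± 0.11 for Id2, 2.03 ± 0.15 for Bmp7 and 1.05 ± 0.18 for Smad6 (SE). Id3 was then at 0.81 ± 0.15 (SE; edgeR adjusted p = 1.51e-04), under the minimum fold. The earlier library series alone holds 1 RA library, replicate 1, against the 3 untreated ones, and gave 1.59 for Id1, 1.08 for Id2 and 2.12 for Bmp7. These are values only, since the spread came from the untreated libraries and the lone RA library was assumed to vary like them.

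The low point of Id1, Id3 and Id4 in untreated organoids also fell at 30 h, in the 3 untreated libraries with low Y-linked genes. Id1 averaged 7.67 CPM at 18 h, 2.29 CPM at 30 h and 5.81 CPM at 42 h, and Id3 averaged 16.9, 6.46 and 14.9 CPM. For Id4 the means were 1.71, 0.383 and 1.72 CPM. Id2 and Smad6 did not share this dip, with 13.7, 14.8 and 27.6 CPM and 2.58, 3.31 and 4.14 CPM. No untreated library of 30 h had Y-linked genes at the level of the other times, so time and this feature cannot be told apart in the untreated arm.

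**Figure D3:**
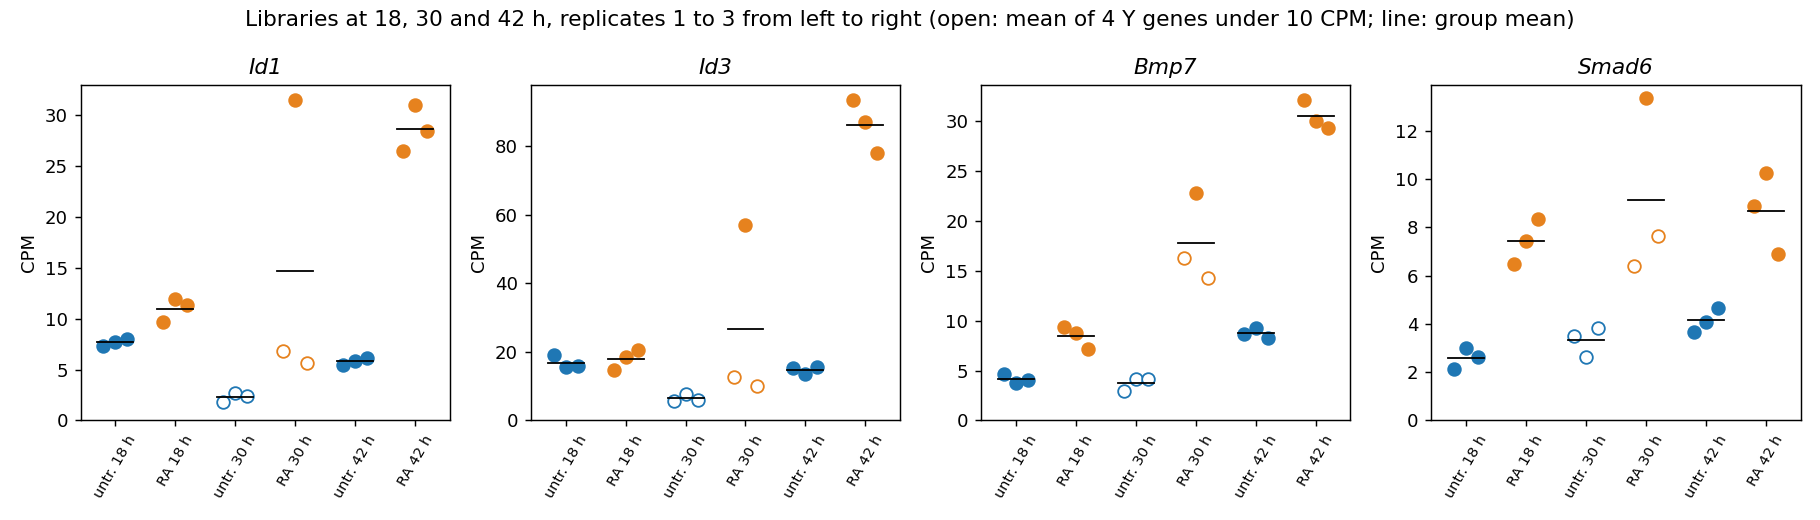
CPM of Id1, Id3, Bmp7 and Smad6 in single libraries at 18, 30 and 42 h, for untreated (blue) and RA-treated (orange) organoids, with a line at each mean. Open circles are the libraries whose 4 Y-linked genes averaged under 10 CPM. At 30 h the single filled circle, RA replicate 2, held 31.5 CPM of Id1 where the other RA libraries held 6.84 and 5.60 CPM.

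Compared with day 2, the 10 genes went in different directions without RA. The 3 comparisons that follow share the day 2 libraries, so their values are set side by side only. All 78 h libraries were of the later library series, and of the day 2 libraries only replicate 3 was. Time and series therefore cannot be fully told apart between day 2 and 78 h. In the first 8 h without RA, 1 of 9 tested genes was called lower, Id3 at -1.10 ± 0.08 (SE; edgeR adjusted p = 1.31e-06), against 0.179% of all genes tested, and 0 higher, against 0.409%. Id1 was next at -0.98 ± 0.09 (SE), and it was called, at -1.02 or -1.03, when day 2 replicate 1, day 2 replicate 2 or untreated replicate 3 was left out. At 78 h without RA, 4 of 9 were called higher (Bmp7 2.12, Id2 1.49, Id4 1.40 and Smad6 1.24), against 20.3% of all genes. At the same time, 2 of 9 were called lower (Bmp4 -1.64 and Id1 -1.17), against 13.6%. At 78 h with RA, 7 of 10 were called higher than on day 2, against 22.9% of all genes, and 0 lower, against 14.5%. These were Nog (4.12), Bmp7 (2.90), Id4 (2.35), Smad6 (2.17), Id2 (1.98), Id3 (1.90) and Smad7 (1.43). No day 2 library held 10 counts of Nog, which could be called there only as raised. Id1 was at 0.94 ± 0.08 (SE) and Bmp4 at 0.25 ± 0.17 (SE) in that comparison, and Bambi at -0.14 ± 0.12 (SE). Untreated organoids held 0.433 times the day 2 mean of Id1 at 78 h, and RA-treated ones 1.88 times.

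The RA effect had a higher value at 78 h than at 18 h for 6 of the 10 genes, against 13.1% of all genes. For 0 it had a lower value, against 14.8%. This was an edgeR interaction test over the 12 libraries of both times (adjusted p under 0.01). All 18 h libraries were of the earlier library series and all 78 h libraries of the later one, so time and series cannot be told apart in it. The log2 fold change of RA over untreated was higher at 78 h by 2.42 ± 0.16 for Id3, 2.03 ± 0.15 for Smad7 and 1.85 ± 0.25 for Bmp4 (SE). It was higher by 1.77 ± 0.29 for Id4, 1.57 ± 0.13 for Id1 and 0.83 ± 0.17 for Bambi (SE). Bmp7 (-0.26 ± 0.14, edgeR adjusted p = 0.16) and Id2 (0.17 ± 0.12, edgeR adjusted p = 0.293) did not pass. Nog (1.37 ± 0.59, edgeR adjusted p = 0.0737) and Smad6 (-0.60 ± 0.20, edgeR adjusted p = 0.0232) did not pass either. Bmp7 and Smad6, the 2 genes called at 18 h, were at 1.03 and 1.53 at that time and at 0.79 and 0.95 at 78 h.

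Per kilobase of exon, the order of the 10 genes at 78 h differed between the arms. On day 2, Id3 (23.5 CPM per kb) and Id1 (21.7) led, followed by Id2 (7.51) and Bmp4 (5.13). At 78 h without RA, Id2 led with 20.4 CPM per kb, before Id3 (14.6) and Id1 (9.40). Under RA the order was Id3 (85.7 CPM per kb), Id1 (40.7) and Id2 (29.0), with Bmp7 (6.58) and Bmp4 (5.97) next. Untreated organoids at 78 h held 3.81 CPM per kb of Bmp7 and 1.62 of Bmp4. At each of these 3 points an Id gene was the most abundant, and Nog, at 0.0861, 0.281 and 1.54 CPM per kb, was last on day 2 and in untreated organoids and next to last, above Bambi, under RA.

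Across the 15 condition means, on the scale of log2(CPM + 1), Id1 and Id3 were most alike of all pairs (Pearson r = 0.956, n = 15 conditions). Id3 and Nog (r = 0.911) and Id2 and Bmp7 (r = 0.898) followed. Bmp4 and Bmp7, the ligand genes, had r = 0.0012. All points come from the same libraries and share their time course, so these are descriptions without a test. Among 14306 genes compared, those most like each gene were Ap4m1 for Id1 (r = 0.977), Tgfbr1 for Id2 (0.974), Timm29 for Id3 (0.972), Tox for Id4 (0.968) and Itpka for Bmp4 (0.952). For the others they were Osbpl5 for Bmp7 (0.988), Heg1 for Smad6 (0.99), Anxa4 for Smad7 (0.923), Uck2 for Bambi (0.898) and Nxf7 for Nog (0.985), with the proneural gene Neurog2 next for Nog (0.984). With a pseudocount of 0.1, Nxf7 and Neurog2 were no longer among the 3 genes most like Nog, while the genes named for the other 9 stayed among their first 3.

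Of the 12 BMP and GDF ligand genes beyond Bmp4 and Bmp7, 4 of 7 tested were called higher at 18 h (8.17% of all genes) and 5 of 9 at 78 h (7.66%). At 8 and 30 h, 0 of 4 and 0 of 7 were called in either direction by edgeR, and Gdf3, which encodes a ligand of pluripotent cells, was called lower at 42 and 54 h. Of 19 calls of a higher ligand over the 7 time points, 11 were in genes that fewer than 3 untreated libraries held at 10 counts, so that these could be called only as raised. Bmp2, a close relative of Bmp4, held 3.21, 1.93 and 2.51 CPM under RA at 18 h against 0.226, 0.125 and 0.0530 CPM untreated, which is 47 to 73 against 2 to 5 counts. At 78 h it held 2.36, 2.65 and 2.69 CPM against 0.143, 0.318 and 0.163 CPM, which is 77 to 83 against 4 to 11 counts. Its log2 fold change of 3.58 ± 0.29 (SE; edgeR adjusted p = 2.02e-06) rests on those low untreated counts. Bmp2 was called at 5 of 7 time points and left untested at 8 and 30 h. Bmp6 was called at 54, 66 and 78 h (2.35, 2.16 and 2.33), and Bmp8b at 18, 54, 66 and 78 h (1.15, 1.08, 1.02 and 1.52). The Bmp8b calls at 54 and 66 h were lost in 5 and 3 of 6 fits with a library left out (0.87 to 1.29 and 0.85 to 1.21).

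Of 12 receptor and co-receptor genes, 1 was called higher at 18 h, against 8.17% of all genes, and 2 higher and 1 lower at 78 h, against 7.66% and 4.03%. The median log2 fold changes of the 12 were 0.14 and 0.12. Rgma, which encodes a BMP co-receptor, was the gene called at 18 h, with 64.0, 66.6 and 71.0 CPM under RA at 18 h against 14.9, 12.9 and 13.5 CPM. It was called at 8, 18 and 30 h (1.99, 2.302 and 2.91), and at 78 h its log2 fold change was -0.57. The 8 h call was lost in 2 of 6 fits with a library left out, with values of 1.91 to 2.14, the last of these without RA replicate 3. Of Smad1, Smad5, Smad9 and Smad4, the signal transducers, Smad9 was called higher at 18 h and none of the 4 at any other time. Fewer than 3 untreated libraries held 10 counts of Smad9 at 18 h, so it could be called there only as raised.

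Among 16 secreted antagonist genes beyond Nog, Fst and Sost moved in opposite directions. Fst encodes follistatin, which binds activins and some BMPs, and it fell at all 7 time points, although the call at 8 h (-3.36) was lost in 5 of 6 fits with a library left out (-3.67 to -2.96). At 18 h it held 1.89, 1.93 and 1.602 CPM under RA against 34.2, 34.1 and 31.0 CPM untreated, a log2 fold change of -4.18 ± 0.10 (SE; edgeR adjusted p = 6.06e-12). At 78 h it held 13.4, 10.8 and 6.29 CPM against 77.2, 82.4 and 78.1 CPM. Sost, Nbl1 and Fstl3 went up instead. Sost was called at the 6 time points from 18 h on, Nbl1 at the 5 from 30 h on (1.64 at 78 h), and Fstl3, which encodes a follistatin-like binder of activins, at 54, 66 and 78 h (1.48, 2.07 and 3.22). At 30 h the Nbl1 call was lost in 4 of 6 fits with a library left out and the Sost call in 1. Of 23 calls of a higher antagonist over the 7 time points, 6 were in genes that fewer than 3 untreated libraries held at 10 counts. Among these were Sost at 18 and 30 h and Nbl1 at 30 h, which could be called there only as raised. In all, 1 antagonist gene was called higher and 1 lower of 10 tested at 18 h, against 8.17% and 2.76% of all genes. At 78 h 6 were called higher and 2 lower of 13, against 7.66% and 4.03%.

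Of 11 intracellular and proteolytic regulators, 2 were called higher at 18 h, against 8.17% of all genes, and none at 78 h, against 7.66%. Ski encodes a corepressor of SMAD proteins and rose at once, with 240, 235 and 227 CPM at 8 h under RA against 103, 103 and 97.7 CPM untreated. It was called at 8, 18 and 30 h (1.23, 1.47 and 1.16), and at 1.24 at 8 h without RA replicate 3. Tll1 and Bmp1 encode proteases that cleave the antagonist chordin, and Tll1 was called from 8 to 54 h with a peak of 4.27 at 30 h, Bmp1 at 30, 42 and 54 h (1.17, 1.26 and 1.20). The Bmp1 call at 30 h was lost in 3 of 6 fits with a library left out (1.05 to 1.28).

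**Figure D4:**
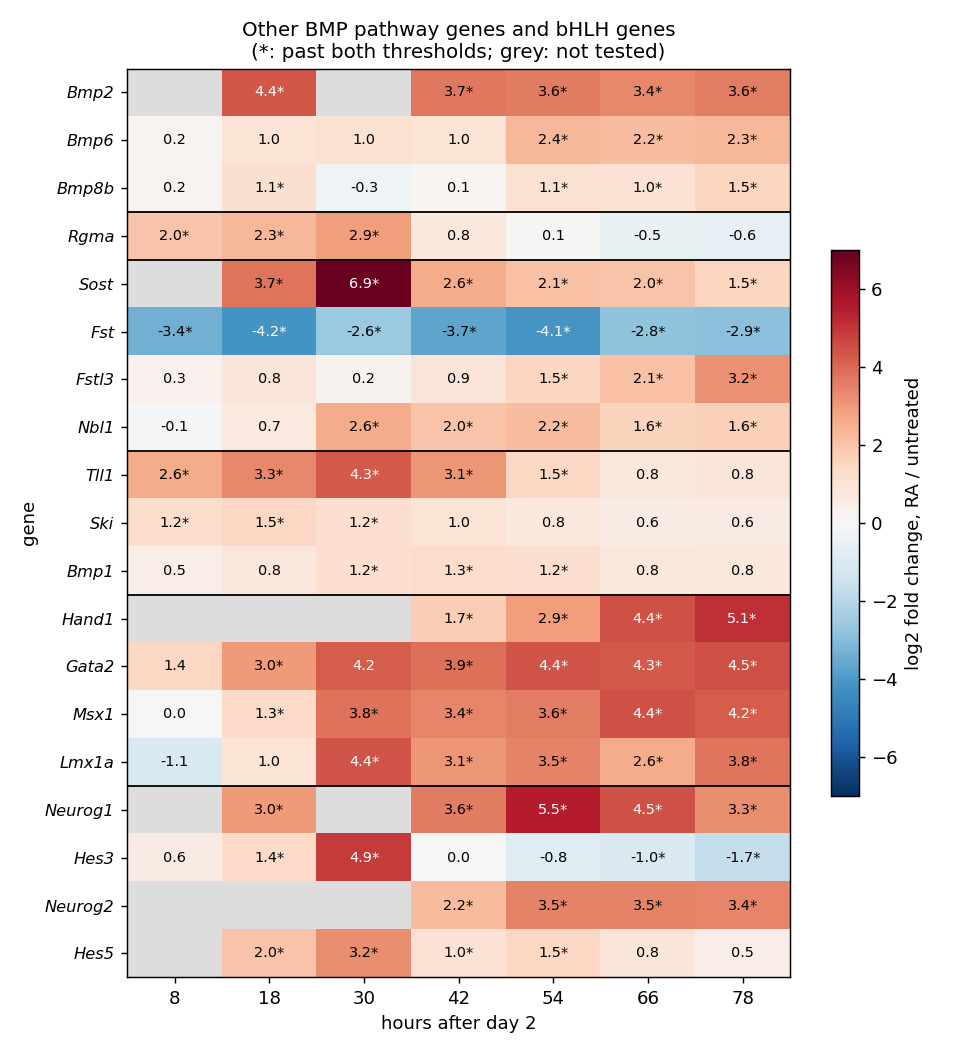
Log2 fold change of RA-treated over untreated organoids for other BMP pathway genes and bHLH genes, ordered by list from ligands at the top to bHLH genes at the bottom, with stars for values past both thresholds and grey for genes not tested. Fst was negative at all 7 time points, and Msx1 was called at the 6 time points from 18 h on.

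Of the 16 genes listed as BMP targets beyond the Id, Smad and Bambi genes, 2 of 11 tested were called higher at 8 h (1.26% of all genes). At 18 h 12 of 15 were called higher (8.17%), at 30 h 6 of 13 (5.98%) and at 78 h 13 of 15 (7.66%). None was called lower in any of the 7 comparisons, against 0.537% to 5.99% of all genes tested. The median log2 fold change was 2.21 at 18 h and 2.64 at 78 h. Of 70 calls over the 7 time points, 24 were in genes that fewer than 3 untreated libraries held at 10 counts, among them Hand1 and Lmx1a at 78 h, and these could be called only as raised. Gdf7 is in both this list and the ligand list, and its call at 18 h counts in each. Msx1, a homeobox gene of the dorsal neural tube, held 5.36, 4.81 and 4.11 CPM at 18 h under RA against 1.40, 2.04 and 2.12 CPM. At 78 h it held 19.7, 19.5 and 20.1 CPM against 0.860, 1.24 and 1.00 CPM, a log2 fold change of 4.24 ± 0.13 (SE; edgeR adjusted p = 1.53e-09). Its libraries did not overlap at either time. Gata2 and Hand1, transcription factor genes that also mark trophoblast and mesoderm, were at 4.51 and 5.09 at 78 h, and Lmx1a, a roof plate gene, was at 3.76. The calls of Msx1 and Lmx1a at 30 h were each lost in 3 of 6 fits with a library left out (3.07 to 4.07 and 3.60 to 4.81).

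The 3 E protein genes, whose products Id proteins bind, were not called at any time, with median log2 fold changes from -0.0041 to 0.30. Among 11 proneural, Hes and Hey genes, Neurog2 held 6.71, 8.44 and 9.86 CPM under RA at 78 h against 0.789, 0.695 and 0.813 CPM, a log2 fold change of 3.43 ± 0.19 (SE; edgeR adjusted p = 1.24e-07). Neurog1 was at 3.27 at that time and Hes3 at -1.69. At 78 h, 4 of 10 tested were called higher and 1 lower, against 7.66% and 4.03% of all genes. Neurod1 was called lower at 18, 30, 42 and 54 h, and Hes6 at 8, 18, 30 and 42 h. Of 22 higher calls over the 7 time points, 9 were in genes that fewer than 3 untreated libraries held at 10 counts. These could be called only as raised, among them Neurog1 and Neurog2 at 42 and 54 h. Neurog1, Neurog2, Id1 and Id3 were all called higher at 78 h, while Id2 and Id4 were not called.

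Markers of other cell types differed between the arms, each list with a course of its own. The summed CPM of 7 surface ectoderm and trophectoderm markers (Krt8, Krt18, Krt19, Tfap2c, Cdx2, Grhl2 and Trp63) was 160 to 177 under RA and 166 to 186 without at 18 h. At 42 h it was 199 to 216 against 104 to 123. At 78 h it was 613 to 628 against 75.1 to 86.0, when 6 of the 7 were called higher, against 7.66% of all genes. Fewer than 3 untreated libraries held 10 counts of Trp63 there, so it could be called only as raised. Single genes of this list also went the other way. Grhl2 was called lower at 6 of the 7 time points, with its largest difference at 30 h (-2.65). That call was lost in 5 of 6 fits with a library left out. Among RA libraries at 30 h the sum ran from 57.6 to 229. The 6 endoderm markers (Sox17, Foxa2, Gata4, Gata6, Cxcr4 and Afp) summed to 56.6 to 69.5 CPM under RA at 78 h against 35.2 to 40.9, and Afp had 0 counts in all 3 untreated libraries. For 6 mesoderm markers (T, Tbx6, Mesp1, Meox1, Foxc1 and Kdr) the sums were 40.8 to 43.5 against 4.45 to 6.68 CPM at 18 h and 12.2 to 15.3 against 6.56 to 10.1 CPM at 78 h. At 18 h Meox1 and Foxc1 were called higher under RA, and T and Kdr lower. Each of these genes held 10 counts in fewer than 3 libraries of its lower arm, so it could be called only in that direction. T was called lower at 5 of the 7 time points. The 6 neural crest markers (Sox10, Foxd3, Ets1, Tfap2b, Sox9 and Snai2) summed to 10.1 to 12.6 under RA against 52.2 to 53.5 CPM at 18 h. At 78 h the sums were 38.7 to 47.4 against 27.5 to 28.7 CPM. Single genes of this list went both ways. At 18 h Foxd3 was called lower and Sox9 and Sox10 higher. Fewer than 3 untreated libraries held 10 counts of Sox10 there, so it could be called only as raised. At 78 h Foxd3 was called lower and Snai2 and Tfap2b higher. The 6 pluripotency markers summed to 230 to 320 CPM under RA against 732 to 822 at 42 h, and to 248 to 433 against 408 to 489 at 78 h. Single genes of this list went both ways as well. Pou5f1 was called lower from 18 h on, and Klf4 was called higher at 66 and 78 h. The median log2 fold change of the 6 was 0.66 at 66 h and 0.59 at 78 h, so the lower sum does not describe each gene. The 6 neuron markers summed to 115 to 125 CPM under RA against 244 to 284 at 42 h. At 78 h their sums were 356 to 391 against 288 to 295 CPM. Of the 6, 4 were called higher (Map2, Elavl4, Dcx and Tubb3), against 7.66% of all genes, and Stmn2 lower, against 4.03%. These genes were read in RNA from whole organoids, in which fewer cells of a type and less RNA per cell cannot be told apart, and the part of such cells in the values of the 10 genes was not tested.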

How the data were processed

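Per the labels and the methods of the study, poly(A) RNA of R1 organoids was made into strand-specific libraries. The authors trimmed reads with Trim Galore 0.5.0, removed abundant sequences with Bowtie2 2.3.4.1, aligned to GRCm38 and counted reads over genes with featureCounts (Subread 1.6.2). The deposited values are raw counts, neither normalized nor pooled. Sample protocols give other hours and the RA dose in micromolar. Times were taken from the titles, and the dose from the design text and the methods. Columns were matched to samples by library number, and all 45 were used.

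Symbols, positions and exon lengths came from GENCODE M21. The libraries of a comparison entered 1 fit each in edgeR 4.0.16 in R 4.3.3 (TMM, filterByExpr with a minimum count of 10 and minimum total of 15, glmQLFit, glmQLFTest), and p-values were adjusted by the Benjamini-Hochberg method over all genes tested. The standard error is the log2 fold change divided by the square root of the F statistic. CPM values were normalized by TMM over all 45 libraries. The fits were tested on simulated data. Alternatives were other scalings and filters, DESeq2 1.42.0, 1 fit of all libraries, a looser threshold, a replicate block and each library left out.

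The 10 genes and all lists were chosen with earlier results of these data known. Other genes named are those of the lists called at 3 or more of 7 time points with a mean of at least 1 CPM, at most 4 a list, and the genes most similar to each of the 10 by Pearson r. Replicates are labelled as biological replicates. Over 45 replicate pairs, the lowest mean chi-square per gene was 1.97, so that no pair looked like 1 library deposited again. Exons of Id4 and Bmp4 overlap genes on the other strand that had at most 2 and 4 counts in any library, apart from Gm15222 (at most 27), which shares no exon base with Bmp4.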

Additional observations from a re-analysis of the deposited data

Results flagged for a closer look

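The RA effect on 6 of the 10 genes differed between 78 h and 18 h by the test of the difference itself (edgeR interaction over 12 libraries, adjusted p under 0.01). Of all genes tested, 13.1% had a higher value at 78 h and 14.8% a lower one. The log2 fold change of RA over untreated was higher at 78 h by 1.57 for Id1, 2.42 for Id3, 1.77 for Id4, 1.85 for Bmp4, 2.03 for Smad7 and 0.83 for Bambi. For Bambi it went from -0.68 at 18 h to 0.18 at 78 h (edgeR adjusted p = 0.2 at 78 h), so its effect was not larger in size. Smad7, Id4 and Bambi went from RA libraries wholly below the untreated ones at 18 h to wholly above at 78 h. At 18 h, 2 of 9 tested genes were called higher, against 8.17% of all genes, and at 78 h 5 of 10, against 7.66%. The 18 h libraries were all of the earlier library series and the 78 h libraries all of the later one, so time and series cannot be told apart here. Groups of 3 libraries were too small to check for a single extreme library by a rule.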

How the results depend on the processing

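All calls of the 10 genes kept their direction under every alternative run, and all 17 sign changes were in differences that were not called. At the looser threshold (adjusted p under 0.05, any fold), the genes called higher became 1 at 8 h, 4 at 18 h, 5 at 30 h and 9 at 78 h. Id2 and Smad7 at 42 h, Id2, Id4 and Smad7 at 54 h, Id2 at 66 h and Id1 for RA 78 h against day 2 were then called higher too. Those called lower became 3 at 18 h, 1 at 30 h, 1 at 42 h, 4 for untreated 8 h and 4 for untreated 78 h against day 2. In the interaction test, 1 gene (Smad6) then had a smaller RA effect at 78 h than at 18 h. DESeq2 called 1 higher at 8 h, 1 at 18 h and 4 at 30 h. Without the filter on low counts, 1 was called higher at 8 h and 5 at 30 h, with at least 10 counts in every library 1 at 8 h, and with 1 fit of all 45 libraries 1 at 8 h, 6 at 30 h and 0 lower for untreated 8 h against day 2. For the other scalings, the filters, DESeq2 and the single fit, only the larger changes of a count are listed. With each library left out, the genes called higher numbered 0 to 1 at 8 h, 1 to 2 at 18 h and 2 to 4 at 30 h. They numbered 4 to 6 at 42 h, 5 to 6 at 54 h, 7 to 8 at 66 h and 5 to 6 at 78 h. For untreated 78 h against day 2, 4 to 5 were called higher, and for untreated 8 h against day 2, 1 to 2 were called lower. The cause of these changes was not tested, apart from the looser threshold.

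With each library left out, log2 fold changes ran across 0 for Id3 (-0.0749 to 0.271) and Id4 (-0.334 to 0.0441) at 8 h, Id3 (-0.0096 to 0.234) and Bmp4 (-0.0527 to 0.134) at 18 h, Id4 (-0.228 to 0.237) at 42 h, Bambi (-0.0844 to 0.0086) at 66 h, and Id2 (-0.115 to 0.0101) and Smad6 (-0.224 to 0.169) for untreated 8 h against day 2. DESeq2 gave -0.0028 for Bmp4 at 18 h. Scaling by library totals gave 0.0069 for Bambi at 66 h, 0.0049 for Smad6 in untreated 8 h and 0.0244 for Bambi in RA 78 h against day 2, and this scaling moved the median of all genes to 0.14 at 18 h and 0.18 at 30 h. Same-numbered replicates did not deviate together (correlations of -0.192 to 0.226, with every pair over 0.1 in 0 of 10 comparisons), so that the numbers pair nothing. With a replicate block, the genes called higher numbered 0 at 8 h, 2 at 18 and 30 h, 6 at 42 and 54 h, 8 at 66 h and 5 at 78 h, and no call of the 10 genes changed, while Fst at 8 h was no longer called. Of 246 calls of other named genes, 20 were lost in some fit with a library left out. Depth limited Nog, whose untreated libraries held at most 6 counts up to 42 h.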
